A study of Ophthalmotilapia nasuta and Ophthalmotilapia ventralis with 60 samples.

Results

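Glycine is a main fast inhibitory transmitter of the vertebrate hindbrain and spinal cord, and 5 genes of its transport and reception were followed here through the brain of 2 cichlid species from Lake Tanganyika. They are the transporter genes slc6a5 and slc6a9 and the receptor genes glra1, glra2 and glrb, chosen by their symbols among the 36499 genes in the count files. RNA of wild-caught mature females, 5 of Ophthalmotilapia nasuta and 5 of O. ventralis, was sequenced at transcript 3′ ends (QuantSeq) in 6 parts of the brain of each fish, which gave 12 groups and 60 libraries: brain stem, cerebellum, diencephalon (with preoptic area, hypothalamus and pituitary), olfactory bulbs, optic tectum and telencephalon. The fish received no treatment, and each species lived in its own aquarium and came from its own place in the lake, so that species, aquarium and origin cannot be told apart. All fish of O. nasuta were dissected before those of O. ventralis on the same day, so that species and order of dissection coincide too. With 25798 counts in all, the library of the bulbs of O. nasuta fish 5 was too shallow to use, which leaves 59 libraries.

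Neurons that release glycine take it up at their endings with GlyT2, the product of slc6a5, which refills the store from which the vesicles are loaded, and slc6a5 is therefore the usual marker of these neurons. GlyT1, the product of slc6a9, sits mainly on glia, where it removes glycine from the synaptic cleft, and in mammals it is also found near NMDA receptors, for which glycine is a co-agonist. The receptor is a chloride channel of 5 subunits built from alpha subunits, here those of glra1 and glra2, and the beta subunit of glrb, which binds the scaffold protein gephyrin. In rodents glra2 prevails before birth and glra1 in the adult brain stem and spinal cord.

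The deposited values are raw counts per gene. Levels are given as CPM, that is, counts relative to library size after scaling with TMM factors, and group means carry the standard deviation (SD) between fish. The kit makes 1 fragment per transcript, so that no correction for length was made. The totals lay between 137128 and 1531632 counts (median 519523). A count of 0 allows a level of up to 2.09 CPM in the deepest and 21.8 CPM in the shallowest library (3 counts), and such limits cover counting error only. Differences were tested with the two-sided quasi-likelihood F-test of edgeR on all 11680 genes above 15 CPM in at least 4 libraries, with a term for each fish, and are log2 fold changes ± standard error (SE). An adjusted p is that of a stage-wise procedure over all these genes, with a false discovery rate of 0.05. In tissue samples like these, fewer cells of a type and less RNA per cell cannot be told apart.

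Summed marker genes of brain stem, tectum and diencephalon were highest in the parts of that label. Markers of the olfactory bulbs were missing from some bulb libraries. Of the 7 hindbrain hox genes listed, 5 are in the files, and together they reached 223 to 563 CPM in the brain stem and at most 13.2 CPM in any other library. The 5 tectal genes summed to 580 to 685 CPM in the optic tectum and at most 126 CPM elsewhere, in the brain stem. gbx2, which is among them, went another way, with means of 11.8 CPM in the brain stem and 0.68 CPM in the tectum. The 5 genes found for diencephalon and pituitary summed to 1252 to 2216 CPM in the diencephalon, 669 to 845 CPM in the tectum, 312 to 442 CPM in the brain stem and less in the other parts. Those of the telencephalon (5 of 7 listed) were not highest in their own part alone. In O. nasuta they summed to 325 to 467 CPM in the telencephalon and 467 to 584 CPM in the bulbs. In O. ventralis the sums were 379 to 433 CPM and 182 to 625 CPM. In the olfactory bulbs, gnrh3 (a gonadotropin-releasing hormone) and npff (a neuropeptide) had 132 to 966 reads in 7 libraries. They had at most 1 read each in the bulb libraries of O. nasuta fish 4 and O. ventralis fish 1, and the library nearest to each of these in expression was a telencephalon. Calls and values of the bulbs are therefore also given without these 2 libraries, an alternative chosen after seeing the data. The bulb library of O. nasuta fish 3 was kept, and the library nearest to it was a bulb. It held 298 CPM of tbr1, a listed telencephalon gene, against 193 to 257 CPM in the telencephalon libraries. Its sum of retina genes (2 of 5 listed are in the files) was 135 CPM, the highest of all libraries.

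All 5 genes passed the filter on low counts. slc6a9, glra1 and glrb were above 15 CPM in all 59 libraries and glra2 in 49, while slc6a5 was above it in 9 brain stem libraries and in none of another part. slc6a5 thus entered the tests only through the part in which it is high, and its call there says no more than the filter does. Each part was compared with the mean of the remaining 5 of its species, averaged on the log2 scale. In these 12 comparisons 35 of 60 tests of the members were called, 21 higher and 14 lower, where 25.2% of all tests of all genes were called. In the brain stem of O. nasuta 3 members were higher and none lower, where 13.9% and 6.31% of all tested genes were called. In that of O. ventralis 3 were higher and 1 lower, against 12.7% and 6.05% of all genes. The cerebellum had 2 higher and 2 lower in O. nasuta (17.3% and 19.9% of all genes) and 1 and 2 in O. ventralis (19.2% and 21.8%). In the optic tectum 3 members were higher and none lower in each species, against 14.4% and 8.93% of all genes in O. nasuta and 12.7% and 7.39% in O. ventralis. The telencephalon had 1 higher and 3 lower in O. nasuta (15.8% and 13.1%) and 1 and 2 in O. ventralis (16% and 12.2%). The diencephalon had none higher and 1 lower in either species (11.6% and 6.53% of all genes in O. nasuta, 12.4% and 8.11% in O. ventralis). In the olfactory bulbs 1 was higher and 1 lower in O. nasuta (13.5% and 8.04%), and 3 were higher and 1 lower in O. ventralis (15.2% and 9.02%). Members were called in opposite directions in cerebellum, bulbs and telencephalon of both species and in the brain stem of O. ventralis. Each gene had its own order of the parts.

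**Figure D1:**
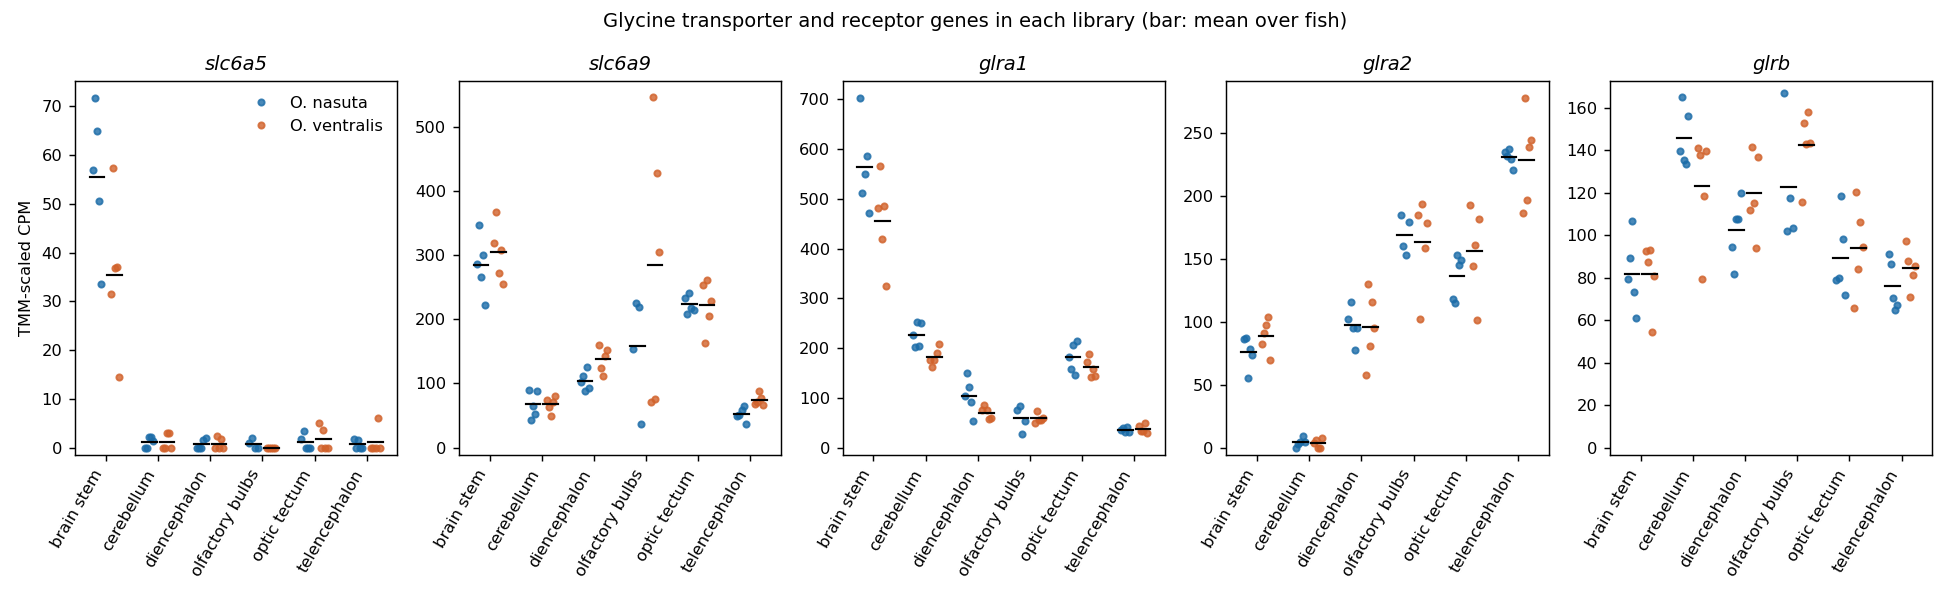
Level of each gene (y axis, TMM-scaled CPM, 1 scale per gene) in the 6 brain parts (x axis), with 1 point per fish, blue for O. nasuta and orange for O. ventralis, and a black bar for the mean of the group. slc6a5 stands above its background in the brain stem alone, glra1 is highest there, glra2 is highest in the telencephalon and nearly absent in the cerebellum, and slc6a9 spreads from 71.0 to 546 CPM among the bulb libraries of O. ventralis.

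slc6a5, the transporter gene of glycine neurons, was read almost only in the brain stem. In fish 1 to 5 of O. nasuta the brain stem held 33, 28, 39, 20 and 11 reads of slc6a5, which are 57.0, 71.6, 65.0, 50.5 and 33.6 CPM. In fish 1 to 5 of O. ventralis it held 15, 38, 19, 21 and 5 reads, or 31.5, 57.4, 36.8, 37.0 and 14.5 CPM. Outside the brain stem no library had more than 3 reads, and 31 of the 59 libraries had none. The measured levels of brain stem and other libraries of a species did not overlap. In O. ventralis 2 shallow libraries cannot be told apart from the lowest brain stem library, at 14.5 CPM. The limit of detection was 21.8 CPM in the bulbs of fish 2, with 0 reads, and 15.2 CPM in the tectum of fish 1, with 1 read. Over the pooled counts slc6a5 had 131 reads in the 5 brain stem libraries of O. nasuta and 12 in its 24 other libraries, a ratio of 64.2 (exact 95% interval 35.5 to 127) after division by the totals. In O. ventralis the reads were 98 and 10, a ratio of 47.9 (24.98 to 103.0). These intervals cover counting error only. The brain stem mean was 55.5 ± 14.6 CPM (SD, n = 5) in O. nasuta and 35.4 ± 15.4 CPM (n = 5) in O. ventralis, and the means of the other parts lay between 0 and 1.73 CPM. No read was found in the 5 bulb libraries of O. ventralis, and the brain stem mean was at least 23.9-fold higher than the 1.48 CPM that 3 counts over this group allow, or at least 18.1-fold higher without fish 1. The other parts cannot be put in an order: no pair of neighbours among them differed (adjusted p = 1 for each), and their order by the median was not the order by the mean.

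Genes of the hindbrain moved with slc6a5. Among the 11679 other tested genes, hoxb8, hoxd3 and hoxb3 were the named genes whose means over the 12 groups followed it most closely, with a Pearson r of 0.99 for each of the 3 on the log2 scale. The 12 points share libraries and fish, and with a gene read in 1 part the likeness says little more than that these hox genes, which mark positions along the hindbrain, were read in the same part. Summed markers of motor neurons (5 of 8 listed genes are in the files) reached 63.9 to 136 CPM in the brain stem and at most 6.66 CPM elsewhere. Genes of oligodendrocytes and myelin (4 of 10 listed are in the files, each with reads in every part) summed to 1748 to 3192 CPM in the brain stem and at most 1095 CPM elsewhere, so that their sum too was highest in the part where slc6a5, slc6a9 and glra1 were highest by the mean. Most of that sum was mpz, with a mean of 1966 CPM in the brain stem, and sox10 was also highest there. The other listed genes went another way. mag was higher in the cerebellum (401 CPM) than in the brain stem (303 CPM), and mbp was highest in the bulbs (12.7 against 8.38 CPM). The part that the mixture of cells has in the brain stem levels of these 3 genes was not tested.

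slc6a9, the transporter gene of glia, was high in brain stem and optic tectum and low in telencephalon and cerebellum in both species. In the brain stem its levels were 287, 348, 267, 300 and 223 CPM in fish 1 to 5 of O. nasuta and 319, 367, 272, 308 and 255 CPM in fish 1 to 5 of O. ventralis. In the telencephalon they were 49.2, 51.0, 58.1, 64.7 and 37.4 CPM in O. nasuta and 68.1, 70.6, 87.9, 77.4 and 66.2 CPM in O. ventralis. Every brain stem library was thus above every telencephalon library. Against the other 5 parts, slc6a9 was higher in the brain stem by 1.42 ± 0.24 in O. nasuta (log2, adjusted p = 3.86e-06) and by 1.21 ± 0.23 in O. ventralis (adjusted p = 4.61e-05). The optic tectum held 223 ± 13.5 CPM (SD, n = 5) in O. nasuta and 222 ± 39.9 CPM (n = 5) in O. ventralis, with log2 fold changes of 0.999 ± 0.24 (adjusted p = 0.00101) and 0.68 ± 0.25 (adjusted p = 0.0442). The second of these calls was lost when any of O. nasuta fish 1, 2, 3 or 5 or O. ventralis fish 1, 3, 4 or 5 was left out, with log2 fold changes down to 0.46 and adjusted p up to 0.475. The telencephalon was lower, with log2 fold changes of −1.49 ± 0.29 in O. nasuta (adjusted p = 9.13e-05) and −1.28 ± 0.28 in O. ventralis (adjusted p = 0.0006). The cerebellum held 67.6 ± 21.2 CPM and 68.0 ± 11.9 CPM, which is lower by −1.03 ± 0.31 (adjusted p = 0.0104) and −1.34 ± 0.28 (adjusted p = 0.000334). Without O. nasuta fish 2 or fish 3 the cerebellar call of that species was lost (log2 fold change down to −0.85, adjusted p up to 0.1). The diencephalon, at 104 ± 15.03 and 138 ± 20.3 CPM, was not told apart from the average of the others, with 95% intervals of −0.83 to 0.25 and −0.68 to 0.35.

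In the olfactory bulbs the level of slc6a9 depended on the library. According to the authors, the bulbs were very small, hard to dissect and gave little RNA. They propose that this may be behind the wider spread between bulb replicates. The part of this in the spread of slc6a9 was not tested. The bulbs of fish 1 to 4 of O. nasuta held 153, 226, 219 and 36.4 CPM, and those of fish 1 to 5 of O. ventralis 71.0, 546, 75.6, 428 and 304 CPM. The lowest library of each species is the one without gnrh3 and npff, and another low library, of O. ventralis fish 3, had 155 reads of gnrh3 and 238 of npff but none of th, the enzyme of dopamine synthesis, which had 38, 6 and 27 reads in O. nasuta fish 1 to 3 and 19, 31 and 16 in O. ventralis fish 2, 4 and 5. With all 9 bulb libraries slc6a9 was higher in the bulbs of O. ventralis (0.90 ± 0.24, adjusted p = 0.00507) and not called in those of O. nasuta (0.40 ± 0.27, adjusted p = 0.58). Without the 2 libraries that lack gnrh3 and npff, it was higher in both, with log2 fold changes of 0.71 (adjusted p = 0.00429) and 1.21 (adjusted p = 3.58e-07), and the bulb means were 199 ± 40.1 CPM (n = 3) and 338 ± 201 CPM (n = 4). In the other direction, the call in O. ventralis was lost when fish 2, 4 or 5 of this species or the bulb library of fish 2 alone was left out, with log2 fold changes down to 0.60 and adjusted p up to 0.203.

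**Figure D2:**
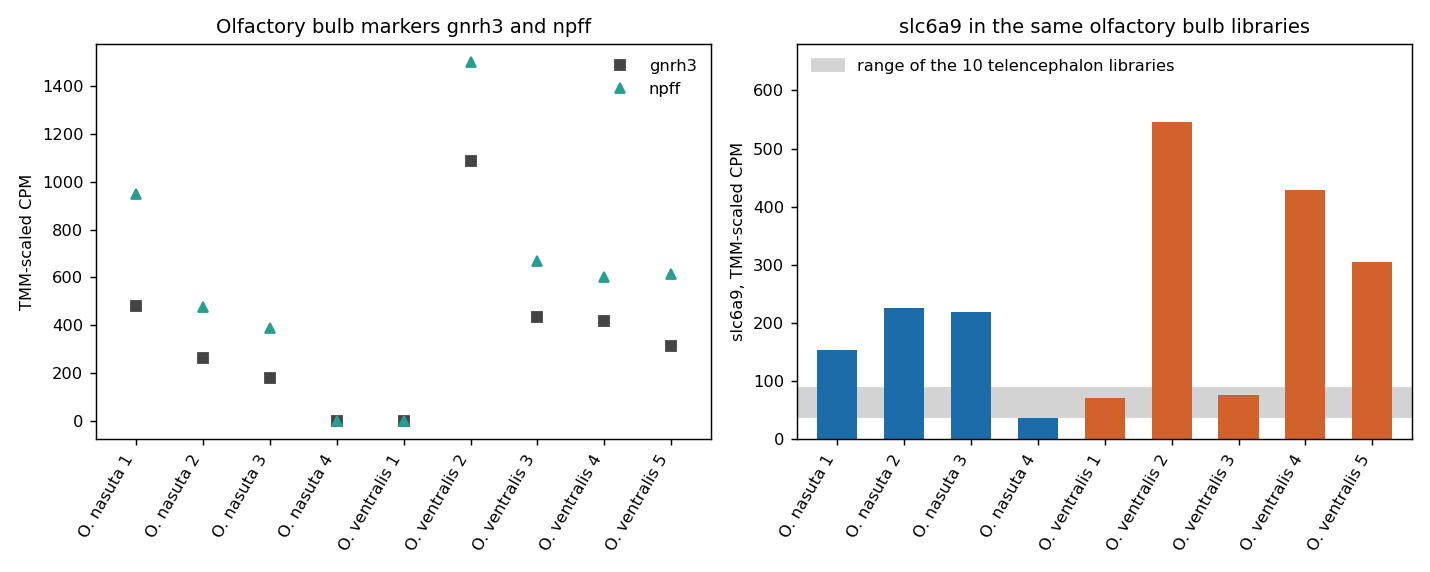
Left, gnrh3 (squares) and npff (triangles) in each of the 9 olfactory bulb libraries (y axis, TMM-scaled CPM). Right, slc6a9 in the same libraries as bars, blue for O. nasuta and orange for O. ventralis, with a grey band for the range of the 10 telencephalon libraries, 37.4 to 87.9 CPM. O. nasuta fish 4 and O. ventralis fish 1, with no gnrh3 read, lie at 36.4 and 71.0 CPM, and O. ventralis fish 3 lies at 75.6 CPM within the band although it holds both markers.

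The order of the parts by slc6a9 held no step between neighbours that was called with all 9 bulb libraries, and some that were called without the 2 in doubt. In O. nasuta it ran from brain stem over optic tectum, olfactory bulbs, diencephalon and cerebellum to telencephalon, and none of the 5 pairs of neighbours differed (adjusted p = 1 for each). In O. ventralis it ran from brain stem over olfactory bulbs, optic tectum, diencephalon and telencephalon to cerebellum, and none of the neighbours differed either. The steps from tectum to diencephalon and from diencephalon to telencephalon in this species were 0.70 ± 0.32 (adjusted p = 0.458) and 0.92 ± 0.35 (adjusted p = 0.178), although their libraries did not overlap. Without the 2 bulb libraries both of these steps passed (0.68, adjusted p = 0.0453, and 0.96, adjusted p = 0.00417). Neither step holds a bulb library, but the fit takes the spread of a gene as the same in all groups. The bulb libraries thus enter the standard errors of the other parts too. The step from bulbs to diencephalon in O. nasuta also passed without the 2 libraries (0.88, adjusted p = 0.0166). The bulbs of O. ventralis, at 338 CPM, then came before the brain stem, with no difference called between them (adjusted p = 1). Parts farther apart in the order did differ, and 14 of 30 pairs were called (22.1% of all tests of pairs over all genes) and 21 without the 2 libraries, for example brain stem against telencephalon by 2.43 ± 0.34 (adjusted p = 3.98e-07) and 2.07 ± 0.33 (adjusted p = 7.81e-06).

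Genes of astroglia and radial glia varied along with slc6a9 between some parts and not between others. The 4 of 11 listed glial genes that are in the files (gfap, slc1a2, fabp7 and gja1) summed to 3006 to 4282 CPM in the brain stem, 2958 to 3953 CPM in the optic tectum and 3528 to 4800 CPM in the diencephalon. They summed to 1552 to 2000 CPM in the cerebellum and 1685 to 2208 CPM in the telencephalon. The diencephalon, with the highest glial sums, was the 4th of 6 parts by slc6a9. Its high sums came from slc1a2, with a mean of 2942 CPM there, 1634 CPM in the brain stem and 1705 CPM in the tectum. In brain stem, tectum and diencephalon, gja1 had means of 912, 813 and 559 CPM and fabp7 of 693, 588 and 569 CPM. Both were lower in the other parts. gfap, the intermediate filament gene of glia, had means of 339 CPM in the brain stem and 433 CPM in the tectum and of 39.4 to 88.5 CPM in the other parts. In the bulbs of O. ventralis fish 1 to 5 the glial sums were 1921, 3922, 1510, 3378 and 2652 CPM, in the same order as the levels of slc6a9 but for fish 1 and 3, and in O. nasuta fish 1 to 4 they were 1864, 2578, 2905 and 2705 CPM, with a high sum in fish 4, in which slc6a9 was lowest. The part of the glial content in the levels of slc6a9 was not tested. The named genes most like slc6a9 over the 12 group means were acsbg1 (r = 0.97), an acyl-CoA synthetase, dock8 (r = 0.94), a guanine nucleotide exchange factor, and slc16a10 (r = 0.93), a transporter of aromatic amino acids.

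glra1, the alpha subunit gene that is typical of the adult hindbrain in rodents, differed from the other 5 parts in each of the 12 comparisons. Its brain stem levels were 703, 511, 550, 585 and 470 CPM in fish 1 to 5 of O. nasuta and 481, 567, 419, 486 and 324 CPM in fish 1 to 5 of O. ventralis. Its telencephalon levels were 36.4, 39.3, 31.4, 40.6 and 31.2 CPM in O. nasuta and 44.3, 34.4, 33.8, 48.9 and 29.6 CPM in O. ventralis. The lowest brain stem library held more than the highest library of any other part, which was a cerebellum of O. nasuta with 253 CPM. Against the other 5 parts, the brain stem was higher by 2.53 ± 0.12 (5.76-fold, adjusted p = 6.14e-34) in O. nasuta and by 2.41 ± 0.13 (5.30-fold, adjusted p = 8.53e-32) in O. ventralis. The telencephalon was lower, with log2 fold changes of −2.22 ± 0.17 (adjusted p = 3.15e-20) and −1.85 ± 0.18 (adjusted p = 1.19e-15).

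Between these ends, the log2 fold changes of glra1 were positive in cerebellum and optic tectum and negative in diencephalon and olfactory bulbs. The cerebellum held 227 ± 24.6 CPM (SD, n = 5) in O. nasuta and 182 ± 17.1 CPM (n = 5) in O. ventralis, with log2 fold changes of 0.98 ± 0.13 (adjusted p = 1.13e-09) and 0.84 ± 0.14 (adjusted p = 1.08e-07). The optic tectum held 181 ± 30.2 and 161 ± 19.6 CPM, with 0.56 ± 0.13 (adjusted p = 0.000208) and 0.60 ± 0.14 (adjusted p = 0.000208). As plain means the other 5 parts held 198 and 161 CPM, so that the tectum stands out on the log2 scale alone. The diencephalon, at 104 ± 35.6 and 70.6 ± 12.3 CPM, was lower by −0.43 ± 0.15 (adjusted p = 0.00629) and −0.83 ± 0.16 (adjusted p = 7.95e-06). Without O. nasuta fish 5, whose diencephalon held 54.1 CPM against 91.7 CPM or more in the other fish, the call in that species was lost (−0.26, adjusted p = 0.122). The bulbs held 60.2 ± 25.1 CPM (n = 4) and 58.7 ± 8.88 CPM (n = 5), with −1.42 ± 0.17 (adjusted p = 6.12e-11) and −1.16 ± 0.18 (adjusted p = 3.26e-08), and −1.43 and −1.09 without the 2 bulb libraries that lack their markers.

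The order by glra1 was the same in both species, from brain stem over cerebellum, tectum, diencephalon and bulbs to telencephalon. Cerebellum and tectum did not differ as neighbours in either species (0.35 ± 0.17, adjusted p = 0.163, and 0.19 ± 0.18, adjusted p = 0.579). In O. ventralis diencephalon and bulbs (0.27 ± 0.22, adjusted p = 0.579) and bulbs and telencephalon (0.58 ± 0.24, adjusted p = 0.0847) were not told apart either, and the other 26 of the 30 pairs differed, where 22.1% of all tests of pairs over all genes were called. The count was also 26 without the 2 bulb libraries. The named genes most like glra1 were bcan (r = 0.96), which codes for the matrix proteoglycan brevican, rfx4 (r = 0.95), a transcription factor of radial glia, and pax2 (r = 0.95), a transcription factor of hindbrain inhibitory neurons in rodents. Genes listed as markers of cerebellar granule cells (6 of 7 are in the files) summed to 1353 to 3433 CPM in the brain stem. Their sums were 8455 to 11498 CPM in the cerebellum and at most 2174 CPM in the remaining parts. Of these genes, cbln1 went another way. It had means of 1.06 CPM in the cerebellum, 38.2 CPM in the brain stem and 67.5 CPM in the diencephalon. The part of granule cells in the brain stem level of glra1 was not tested.

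glra2, the other alpha subunit gene, ran nearly the opposite way, with the highest levels in the telencephalon and hardly a read in the cerebellum. In the cerebellum it had 0, 1, 2, 4 and 3 reads in fish 1 to 5 of O. nasuta and 5, 3, 0, 0 and 4 reads in fish 1 to 5 of O. ventralis, or 4.23 ± 3.24 and 3.32 ± 3.32 CPM. In the telencephalon it held 235, 232, 237, 229 and 221 CPM in O. nasuta and 186, 277, 196, 238 and 244 CPM in O. ventralis. No cerebellum library was above 9.05 CPM, and no library of another part was below 55.0 CPM. The cerebellum was lower than the other 5 parts by −4.72 ± 0.45 (26.3-fold, adjusted p = 1.33e-25) in O. nasuta and −5.09 ± 0.42 (34.1-fold, adjusted p = 3.01e-29) in O. ventralis. The telencephalon was higher by 1.92 ± 0.15 (3.79-fold, adjusted p = 4.05e-22) and 1.88 ± 0.15 (3.67-fold, adjusted p = 2.15e-21).

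glra2 was also higher in olfactory bulbs and optic tectum. The bulbs held 169 ± 15.3 CPM (n = 4) and 163 ± 36.7 CPM (n = 5), with log2 fold changes of 1.38 ± 0.17 (adjusted p = 2.99e-12) in O. nasuta and 1.37 ± 0.16 (adjusted p = 7.36e-13) in O. ventralis, and 1.34 and 1.27 without the 2 libraries in doubt. The tectum held 136 ± 18.1 and 156 ± 35.8 CPM, with 1.01 ± 0.16 (adjusted p = 2.43e-08) and 1.197 ± 0.16 (adjusted p = 2.01e-10). The brain stem, at 76.0 ± 13.04 and 88.6 ± 13.4 CPM, did not pass the test, with 95% intervals of −0.36 to 0.34 and −0.07 to 0.59. In the diencephalon, at 97.0 ± 14.05 and 95.6 ± 28.3 CPM, the log2 fold changes of 0.42 ± 0.17 (adjusted p = 0.0573) and 0.38 ± 0.17 (adjusted p = 0.0658) were just above the threshold, and both passed without the 2 bulb libraries (adjusted p = 0.0396 for each) and in a model with no replicate block, that is without fish terms (adjusted p = 0.0412 for each). Leaving out O. nasuta fish 4 (0.58, adjusted p = 0.0116) or O. ventralis fish 1, 2 or 4 (0.42 to 0.43, adjusted p = 0.0303 to 0.0487) also made a call in O. nasuta, and leaving out O. ventralis fish 1 (0.53, adjusted p = 0.0169) one in O. ventralis. The average of the other parts contains the very low cerebellum, which raises each of the log2 fold changes outside it.

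Both species shared the order by glra2: telencephalon, bulbs, tectum, diencephalon, brain stem and cerebellum. The last step, from brain stem to cerebellum, was 3.92 ± 0.47 (adjusted p = 1.62e-16) and 4.46 ± 0.44 (adjusted p = 1.89e-21). Of the other neighbours, tectum and diencephalon of O. ventralis alone differed (0.68 ± 0.19, adjusted p = 0.00553), and the telencephalon was above the bulbs by 0.45 ± 0.17 (adjusted p = 0.0883) and 0.42 ± 0.17 (adjusted p = 0.101), short of the threshold. Without the 2 bulb libraries the step in O. ventralis passed (0.52, adjusted p = 0.0413) and that in O. nasuta did not (0.48, adjusted p = 0.0584). The named genes most like glra2 were fgd1 (r = 0.99), a guanine nucleotide exchange factor, sntg1 (r = 0.98), a syntrophin, and cntnap5 (r = 0.98), a cell adhesion protein of the neurexin family.

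The reads of these 2 alpha subunit genes shifted from glra1 to glra2 along the brain. No gene was found under the symbols glra3, glra4, glra4a or glra4b, so that the shares do not cover all alpha subunits. In the cerebellum glra1 made up 98.1 ± 1.52% of the reads of both genes in O. nasuta and 98.2 ± 1.71% in O. ventralis (SD, n = 5). In the brain stem its share was 88.0 ± 2.13% and 83.5 ± 2.18%. In the tectum (57.0 ± 4.12% and 51.2 ± 7.20%) and the diencephalon (50.7 ± 8.37% and 43.3 ± 9.42%) both genes had similar numbers of reads. In the bulbs the share was 25.5 ± 8.15% (n = 4) and 27.3 ± 8.32% (n = 5), or 26.3 ± 9.76% (n = 3) and 28.9 ± 8.67% (n = 4) without the 2 libraries, and in the telencephalon 13.4 ± 1.40% and 14.6 ± 3.68%. The cerebellum reached its share with fewer reads of glra2 and not with the highest level of glra1, which was in the brain stem. Such shares compare 2 genes whose 3′ ends may not be captured equally well, so that their change between parts is firmer than their value in a part.

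**Figure D3:**
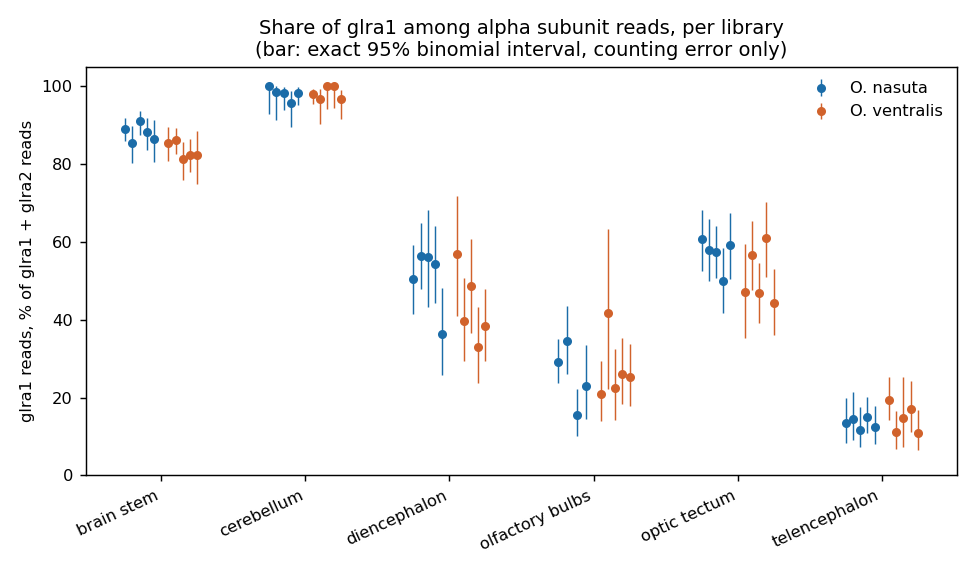
Reads of glra1 as a percent of the reads of glra1 and glra2 (y axis) in each library, by brain part (x axis), blue for O. nasuta and orange for O. ventralis, with exact 95% binomial intervals for counting error. The shares lie between 95.7% and 100% in the cerebellum and between 10.8% and 19.2% in the telencephalon, with no overlap between these parts.

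glrb, the beta subunit gene, was read at similar levels throughout the brain. Its 12 group means lay between 76.0 and 146 CPM, and its levels in single libraries between 54.6 and 167 CPM. On the log2 scale the highest and the lowest part differed by 0.92 in O. nasuta and 0.79 in O. ventralis, where 42.0% and 27.9% of all tested genes had a smaller range (median of all genes 1.03 and 1.11). The corresponding ranges were 3.84 and 3.45 for glra1 and 4.97 and 5.15 for glra2, wider than in more than 95% of all genes.

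The small differences of glrb placed cerebellum and olfactory bulbs at the top and telencephalon and brain stem at the bottom. The cerebellum of O. nasuta held 140, 165, 135, 134 and 156 CPM in fish 1 to 5, and its telencephalon 91.1, 86.4, 70.6, 64.7 and 67.3 CPM, with no overlap. The cerebellum was higher by 0.66 ± 0.13 in O. nasuta (adjusted p = 5.54e-05), while in O. ventralis, at 141, 138, 79.4, 119 and 140 CPM, it was at 0.28 ± 0.13 (adjusted p = 0.204). The bulbs were higher in O. ventralis, at 116, 153, 143, 158 and 143 CPM (0.52 ± 0.13, adjusted p = 0.00295), and short of the threshold in O. nasuta (0.34 ± 0.14, adjusted p = 0.146). Without the 2 bulb libraries these values were 0.60 (adjusted p = 0.00162) and 0.38 (adjusted p = 0.12). The telencephalon was lower in O. nasuta (−0.50 ± 0.13, adjusted p = 0.00531) and at −0.38 ± 0.14 in O. ventralis (adjusted p = 0.0786), where it passed without the 2 bulb libraries (−0.40, adjusted p = 0.0407) and with no joint test (adjusted p = 0.0247). The brain stem was lower in O. ventralis (−0.46 ± 0.14, adjusted p = 0.0189) and at −0.34 ± 0.14 in O. nasuta (adjusted p = 0.148). These calls in one species and not in the other do not show a difference between them: that of cerebellum and telencephalon, for example, differed between the species by 0.42 with a 95% interval of −0.06 to 0.90. The call for the bulbs of O. ventralis was lost without its fish 4, and that for its brain stem without its fish 2, 4 or 5, with adjusted p of up to 0.0897 and 0.22, and 3 of the 4 calls of glrb were lost with no filter on low counts.

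No neighbours in the order by glrb differed in either species, with or without the 2 bulb libraries. Of the 30 pairs of parts 7 did, a share near the 22.1% of all tests of pairs over all genes, and 11 did without these libraries. The widest of these was cerebellum against telencephalon in O. nasuta, at 0.96 ± 0.17 (adjusted p = 1.06e-05). In O. ventralis the widest was brain stem against bulbs, at −0.81 ± 0.18 (adjusted p = 0.000601). The named genes most like glrb, zbtb17 (r = 0.93), myef2 (r = 0.92) and wdr60 (r = 0.88), are a zinc finger gene, an RNA-binding repressor in mice and a gene of the cilium.

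**Figure D4:**
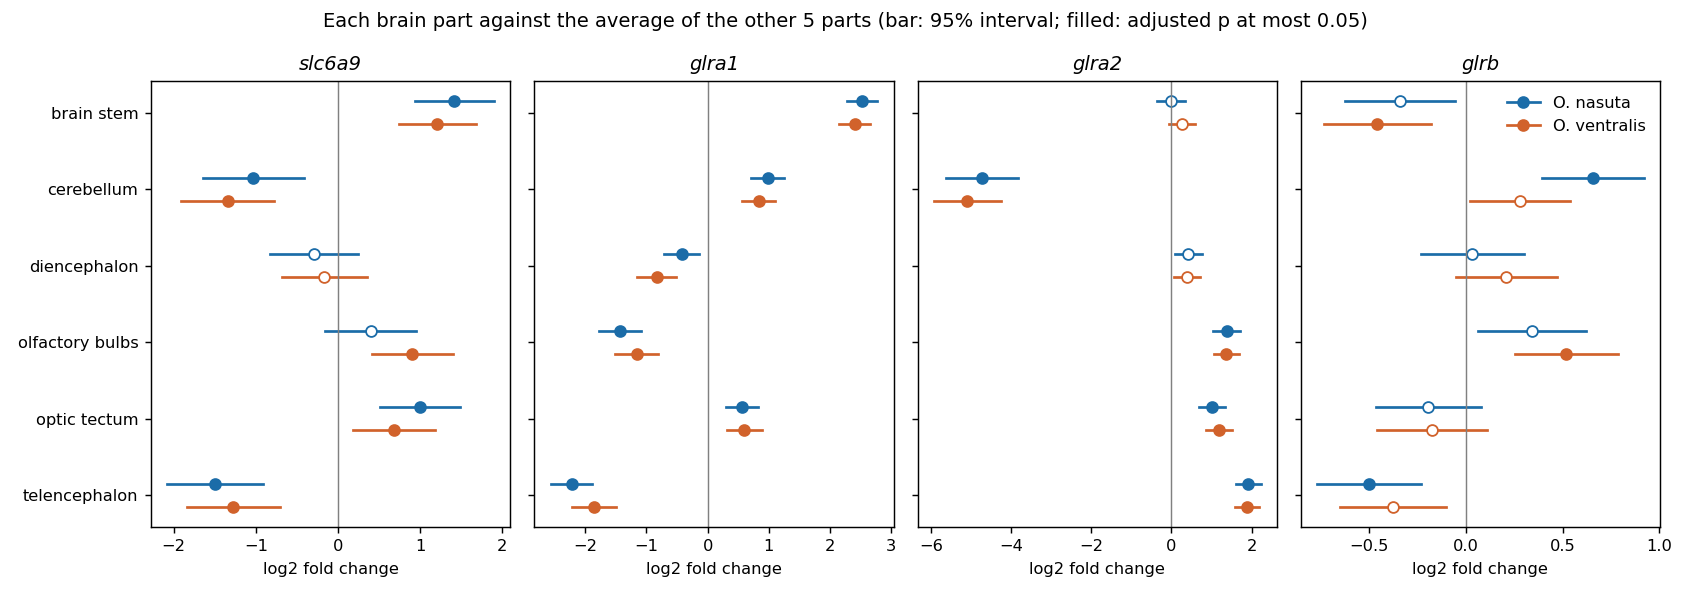
Log2 fold change of each brain part against the average of the other 5 parts (x axis, with 95% intervals) for slc6a9, glra1, glra2 and glrb, blue for O. nasuta and orange for O. ventralis, filled where the adjusted p is at most 0.05. slc6a5 is left out because its counts outside the brain stem are very low. In O. ventralis, whose bulbs hold no read of slc6a5, it has no interval. glra1 and glra2 move apart in cerebellum, olfactory bulbs and telencephalon, and glrb stays between −0.50 and 0.66.

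The same calls were made in both species for most genes and parts. In both species slc6a9, glra1 and slc6a5 were higher in the brain stem (9.85% of all genes were higher there in both), of which slc6a5 had to be so through the filter, slc6a9, glra1 and glra2 in the optic tectum (10.2%), glra1 in the cerebellum (15%), and glra2 in the telencephalon (12.6%) and the bulbs (9.33%). For glra1 in the tectum this holds on the log2 scale and not for plain mean levels. In both species, slc6a9 and glra2 were lower in the cerebellum (17.1% of all genes), slc6a9 and glra1 in the telencephalon (9.01%), and glra1 in the bulbs (5.24%) and the diencephalon (4.92%). The difference between species was tested with 15 differences between pairs of parts, and none of the 75 tests of the 5 genes was called, where 0.0303% of all such tests were called and 47 genes (0.402%) passed the joint test among all. By edgeR 1 of the 75 had an unadjusted p under 0.05, glra1 in diencephalon against telencephalon, which was wider in O. nasuta by 0.64 with a 95% interval of 0.04 to 1.25, and by DESeq2 none was called and 3 were under 0.05. For glra1, glra2, glrb and slc6a9 the 95% intervals of the species differences lay within −1.82 and 1.74.

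Within single brain parts no difference between the species was called in 30 tests, where 1.06% of all genes were called in the brain stem, 2.48% in the cerebellum, 1.46% in the diencephalon, 2.73% in the bulbs, 1.82% in the tectum and 2.1% in the telencephalon. An unadjusted p under 0.05 was found for 2 of the 30 by edgeR and for 2 by DESeq2. In the diencephalon glra1 held 104 ± 35.6 CPM in O. nasuta against 70.6 ± 12.3 CPM in O. ventralis (−0.57 ± 0.20, adjusted p = 0.143), with libraries that overlap, and the difference passed without O. nasuta fish 5 (−0.72, adjusted p = 0.0345). In the bulbs slc6a9 was at 159 ± 87.9 and 285 ± 211 CPM (0.71 ± 0.31, adjusted p = 0.22), and 0.70 without the 2 libraries in doubt (adjusted p = 0.106). It passed without O. ventralis fish 1 alone (0.98, adjusted p = 0.0458). In the telencephalon every library of O. ventralis (66.2 to 87.9 CPM) was above every library of O. nasuta (37.4 to 64.7 CPM) for slc6a9. An exact permutation test gives this its smallest possible p of 0.00794 before any adjustment, while edgeR gave 0.48 ± 0.35 (adjusted p = 0.646). The edgeR fit takes the spread of slc6a9 as the same in all groups, so that the bulb libraries enter this SE too. In the brain stem slc6a5 was at 35.4 CPM in O. ventralis and 55.5 CPM in O. nasuta, with overlapping libraries (adjusted p = 0.539), and slc6a9 was at 304 and 285 CPM, with a 95% interval of −0.47 to 0.67 for its difference.

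Other genes of glycine and of inhibitory synapses were taken from a list of 61 names, of which 25 are in the files and 22 were tested. Their counts by part are given beside the shares of all tested genes called higher and lower in the same comparison. The genes counted as higher in the brain stem include pax2, whose call there says little more than the filter on low counts does. Calls of pax2 are also among the counts of the cerebellum in both species, the tectum of O. nasuta and the telencephalon of O. ventralis. Its fitted fold changes outside the brain stem rest on groups without a read. The genes counted as higher in the tectum include grin3b, which had 221 reads in all used libraries. In O. nasuta 8 of 22 were higher and 3 lower in the brain stem (13.9% and 6.31% of all genes), 6 and 8 in the cerebellum (17.3% and 19.9%), 3 and 2 in the diencephalon (11.6% and 6.53%), 2 and 5 in the bulbs (13.5% and 8.04%), 11 and 2 in the tectum (14.4% and 8.93%) and 4 and 7 in the telencephalon (15.8% and 13.1%). In O. ventralis the counts were 6 and 3 in the brain stem (12.7% and 6.05%), 6 and 10 in the cerebellum (19.2% and 21.8%), 3 and 2 in the diencephalon (12.4% and 8.11%), 4 and 2 in the bulbs (15.2% and 9.02%), 9 and 2 in the tectum (12.7% and 7.39%) and 3 and 8 in the telencephalon (16% and 12.2%). The median log2 fold change of the list was 0.64 and 0.57 in the tectum of O. nasuta and O. ventralis, 0.26 and 0.43 in the brain stem, 0.15 and 0.12 in the bulbs, −0.06 and 0.08 in the diencephalon, −0.30 and −0.16 in the telencephalon and −0.68 and −0.59 in the cerebellum, while the median of all genes lay between −0.04 and 0.04 in each comparison. Listed genes went both ways in each part.

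Among the genes that glycine neurons share with GABA neurons, slc32a1, the vesicular transporter for both transmitters, was higher in the bulbs, by 1.07 ± 0.19 (O. nasuta) or 1.30 ± 0.17 (O. ventralis) and by 1.39 or 1.49 without the 2 bulb libraries, and lower in the cerebellum, with −1.44 ± 0.20 and −1.57 ± 0.19. In the brain stem slc32a1 was higher in O. nasuta (0.51 ± 0.17, adjusted p = 0.0393) and at 0.25 ± 0.17 in O. ventralis (adjusted p = 1). The call in O. nasuta was lost when any fish but O. nasuta fish 4 or O. ventralis fish 1 was left out, with adjusted p up to 0.15. gad1 and gad2, the genes of GABA synthesis, were higher in the tectum of both species, gad1 by 1.17 and 1.10 and gad2 by 1.33 and 1.33 (log2). The GABA transporter gene slc6a11, a relative of slc6a5 and slc6a9 that is mainly glial in mammals, was also higher in brain stem and tectum and lower in cerebellum and telencephalon in both species. slc6a11 had log2 fold changes of 1.85 and 1.51 in the brain stem and −1.70 and −1.73 in the telencephalon. Standard errors of the called values of listed genes lay between 0.11 and 1.54, with a median of 0.19, and the pairs of values in parentheses are those of O. nasuta and O. ventralis.

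At the postsynaptic side, gphn, the gene of gephyrin, was higher in the tectum (0.70 and 0.55) and the telencephalon (0.39 and 0.45) and lower in the cerebellum (−0.68 and −0.58), where glrb was at its highest in O. nasuta. Of the NMDA receptor genes, whose products bind glycine or assemble with subunits that do, grin2a was higher in the tectum (1.59 and 1.76) and lower in the cerebellum (−2.60 and −2.36). grin2b was higher in telencephalon, bulbs (also without the 2 libraries, 1.51 and 1.2) and diencephalon and lower in the cerebellum (−3.06 and −2.65). grin3b, a subunit that binds glycine, was higher in the tectum alone (2.56 and 2.52). It had 221 reads in all used libraries, and whether it passed the filter on low counts through the tectum alone was not tested.

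The transcription factor genes pax2, lhx1 and lhx5, known from inhibitory interneurons of the spinal cord and hindbrain in mice, were higher in the brain stem in both species. pax2 had means of 68.5 and 60.5 CPM there and of 11.6 CPM or less in every other part, with no read in the bulbs of O. nasuta and the telencephalon of O. ventralis. The means of pax2 outside the brain stem were thus under the CPM level of the filter on low counts. As for slc6a5, the brain stem call of pax2 says little more than the filter does. lhx1 had log2 fold changes of 2.40 and 2.35 in the brain stem, and lhx5 of 2.35 and 2.0003. The fitted fold changes of pax2 in the other parts rest on those groups without a read and are not read here. lhx1 was also higher in the cerebellum (1.67 and 1.54), where lhx5 was lower and had means of 1.85 and 0.733 CPM.

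Among the enzymes of glycine and serine metabolism, few differed. gldc, of the glycine cleavage system, was lower in the brain stem of O. nasuta (−1.52) and the cerebellum of O. ventralis (−1.24), and amt, of the same system, passed in no comparison. psat1, of serine synthesis, was higher in the cerebellum (1.12 and 1.21) and lower in the tectum (−0.96 and −1.31), while psph and dao passed in none, and phgdh was lower in the cerebellum of O. ventralis (−1.07). Several of these calls were lost when any of several fish was left out: that of gldc in O. nasuta was lost without its fish 1, 2, 3 or 4 (adjusted p up to 0.206), that of gldc in O. ventralis without any of its fish or without O. nasuta fish 2 or 4 (up to 0.172), and that of phgdh without O. ventralis fish 3 or 4 (up to 1). That of psat1 in the tectum was lost without O. nasuta fish 2, 4 or 5 (up to 0.247) and O. ventralis fish 5 (0.0590). slc6a17, a vesicular transporter for neutral amino acids in rodents, was higher in the cerebellum (0.58 and 0.53) and lower in the brain stem (−0.70 and −0.41), where the call in O. ventralis was lost without O. nasuta fish 5 or O. ventralis fish 1, 2 or 4 (adjusted p up to 0.24).

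**Figure D5:**
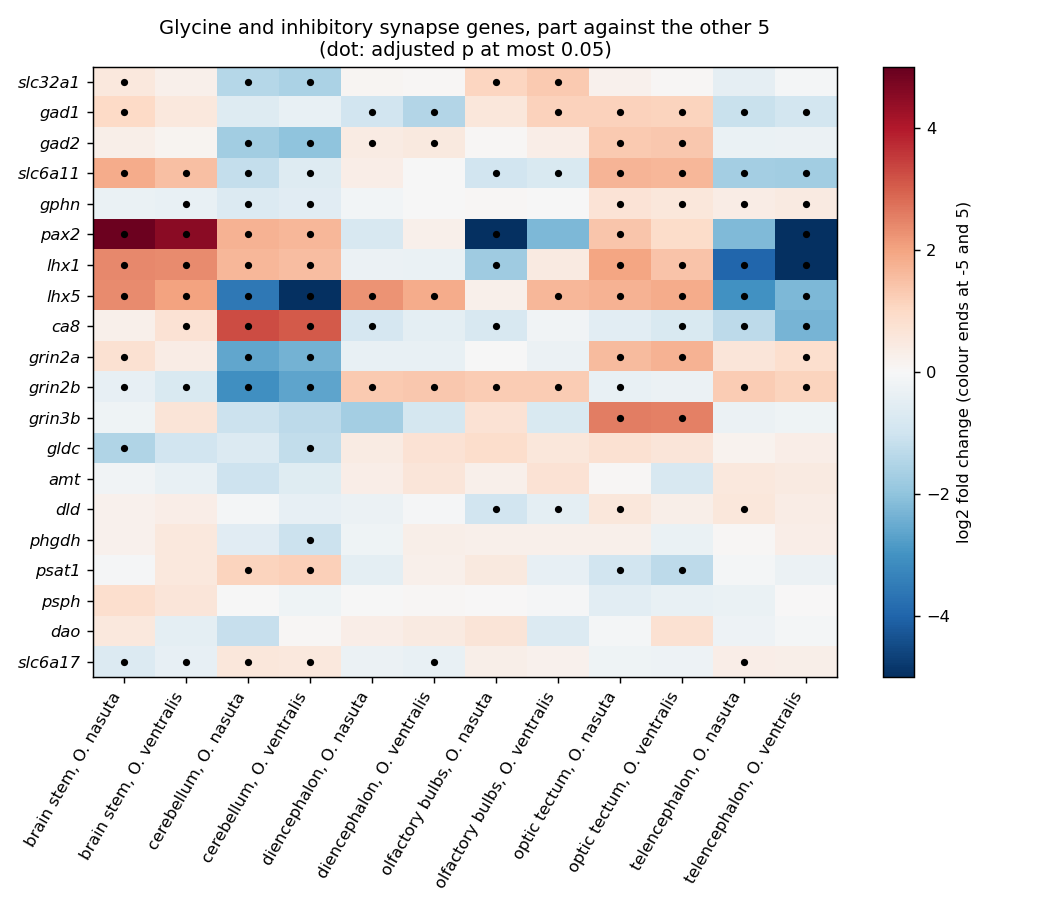
Log2 fold change of listed genes of glycine and inhibitory synapses (rows) in each brain part against the other 5 parts of the same species (columns), from blue (lower) to red (higher) with the colour ending at −5 and 5, and a dot where the adjusted p is at most 0.05. pax2, lhx1 and lhx5 are red in both brain stem columns. The brain stem call of pax2 says little more than the filter on low counts does. The colours of pax2 in its other columns rest on groups without a read. grin2a, grin2b and slc32a1 are blue in both cerebellum columns.

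Between species, few of these genes were called in a part. lhx1 and lhx5 were higher in the bulbs of O. ventralis by 2.19 ± 0.57 (adjusted p = 0.00642) and 1.69 ± 0.39 (adjusted p = 0.00513), the same bulbs whose libraries spread widely in slc6a9, and by 2.32 (adjusted p = 0.00199) and 1.78 (adjusted p = 0.00038) without the 2 bulb libraries. gad1 passed there without these 2 (0.77, adjusted p = 0.0392) and not with them (0.75 ± 0.32, adjusted p = 0.204). None of the 22 passed the joint test of the species difference between pairs of parts.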

How the data were processed

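The authors sequenced QuantSeq 3′ libraries, trimmed the reads, mapped them to the genome of another cichlid, Oreochromis niloticus, with STAR 2.5.2b, and deposited counts of reads per gene made with HTSeq 0.6.1p1 in a strand-specific way, with versions from the submitters' processing notes. The counts are raw, without molecular identifiers, and hold reads that overlap a single gene, so that a copy of a gene with a near-identical sequence or a 3′ end missing from the reference would lower the count. The files hold 36499 genes and 5 summary lines, which were used only for the share of reads in genes (80.9% to 85.3%). No sequence is printed, since no reference was used here.

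The members, the gene lists, the tests and the alternatives were chosen with earlier results of these data known. Genes are named by rule: the 5 members, the genes of the glycine and inhibitory synapse list in the files (of which slc6a14, slc7a10 and shmt1 did not pass the filter, and ca8, a Purkinje cell gene, and dld are not discussed, and some of which are not reported here), and, for each member, the 3 genes with a symbol whose log2 CPM (prior count 2) over the 12 group means had the highest Pearson r with it. The marker lists of Purkinje cells, microglia and blood were summed too and are not discussed. That of the retina is given for the bulb library of O. nasuta fish 3 alone.

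Counts were analysed with R 4.3.3 and edgeR 4.0.16 (TMM, quasi-likelihood fit with legacy = TRUE, robust), modelling fish and the 12 groups of part and species together, as the authors did. The shallow bulb library was left out, as the authors also did. The sets of 12 comparisons of a part with the average of the other 5, of 30 pairs of parts and of 15 species differences were each put to 1 joint test for every gene (false discovery rate 0.05), then to separate tests with Holm's method within the gene. Species were compared within each part without fish terms, with the Benjamini-Hochberg method per part. Standard errors come from the Fisher information and the quasi-dispersion, in place of the value that the F-statistic implies, since that fails where a difference is near 0. Part comparisons and species comparisons within parts were tried on counts simulated without fish effects, with changes set in the brain stem of O. nasuta alone. Pairs of parts, species differences between pairs, DESeq2 and the permutation test were not part of this trial. DESeq2 1.42.0 served as an alternative.

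Replicate numbers mark fish, of which each gave all 6 parts. Deviations from the group means had a mean correlation of 0.0534 within fish and −0.0134 between fish of a species. RNA extraction batches are not given per sample and were not modelled.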

Additional observations from a re-analysis of the deposited data

Results flagged for a closer look

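Of 60 sets of a gene in a group of 4 or 5 libraries, 1 held a library whose gap to the others made up nearly the whole range, where chance flags about 1 in 20. It is slc6a5 in the telencephalon of O. ventralis, with 3 reads (6.11 CPM) in fish 4 and none in the other 4 fish, a level at the limit of detection. The bulb library of O. nasuta fish 5, which was used in no comparison, held 7 reads of slc6a9 and 5 reads of glra2, both above the 3 counts taken as that limit, among its 25798 counts. Its reads of glra1, glrb and slc6a5 (1, 1 and 0) do not pass it.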

How the results depend on the processing

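Of the 35 calls of the 5 genes against the other 5 parts, 28 were kept under every one of 21 alternatives and 7 were lost under at least 1, and no call changed its direction. The 7 are those of slc6a9 in the cerebellum of O. nasuta and in the bulbs and tectum of O. ventralis, of glra1 in the diencephalon of O. nasuta, and of glrb in the telencephalon of O. nasuta and the brain stem and bulbs of O. ventralis, and the cause was not tested. With no replicate block the counts were 37 calls of parts, 82 of pairs of parts and 0 of species differences between pairs, against 35, 80 and 0 with fish terms, and with a replicate block the count within parts between species stayed at 0. Among the comparisons of parts, the fish terms changed no call of the 5 genes other than that of glra2 in the diencephalon. When each fish was left out in turn, the calls were 32 to 36 for parts, 76 to 84 for pairs, 0 to 0 for species differences between pairs and 0 to 1 for species within a part. The exact permutation test over the fish gave 3 of 30 species comparisons with a p under 0.05 before adjustment, slc6a9 in telencephalon (0.00794) and diencephalon (0.0397) and glra1 in the cerebellum (0.0238). Ordering the parts by the median in place of the mean changed the order of slc6a5 in both species and of slc6a9 and glrb in O. ventralis, where 4 of 6 parts kept their place for each of the last 2. Without the 2 bulb libraries that lack gnrh3 and npff the counts were 39 calls of parts and 92 of pairs. Of 119 calls of the other listed genes 90 were kept under every alternative. The depth limits slc6a5 outside the brain stem and glra2 in the cerebellum, where reads were 5 or fewer per library and no order of levels can be read.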
